A study of Mus musculus with 3 samples.

Results

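The genes described here encode 10 ecto-enzymes that act on nucleotides, pyrophosphate or lysophospholipids at the cell surface or in the lumen. They form a list of names, and the rule behind it uses no measured value, although it was drawn up with earlier results of these data known: Enpp1, Enpp2, Enpp3, Enpp4, Enpp5, Entpd1, Entpd2, Entpd3, Nt5e and Alpl. All 10 were found among the 24346 genes of the deposited table. RNA-seq was done on tissue of the proximal epididymis, dissected as initial segment plus caput, from mice of genotype Ovch2-/-. The mice were 14-week-old and had no treatment, and the labels gave 1 group of 3 libraries, called replicates 1, 2 and 3 here. Ovch2 encodes a secreted serine protease of the initial segment. Tissue of other genotypes was not analysed here, so nothing below compares genotypes and no test between groups could be made. Whether each library is a separate animal is not stated in the labels, and their spread may be technical.

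ATP released into the epididymal duct is broken down by enzymes whose active sites face outward. E-NTPDases remove phosphates from ATP and ADP, ENPP1 and ENPP3 split ATP into AMP and pyrophosphate, the ecto-5'-nucleotidase CD73 turns AMP into adenosine, and tissue-nonspecific alkaline phosphatase removes phosphate from nucleotides and from pyrophosphate. Luminal ATP and adenosine are known to stimulate proton secretion by the clear cells of the epididymis. Autotaxin, the product of Enpp2, is a secreted member of the ENPP family that works on lipids and makes lysophosphatidic acid from lysophosphatidylcholine.

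Replicate 1 stood apart from the others. Across all genes, its log2(FPKM + 1) values gave a Pearson's r of 0.965 with those of replicate 2 and 0.969 with those of replicate 3, while replicates 2 and 3 gave 0.989. FPKM counts fragments relative to the length of the transcript and the size of the library, so levels can be roughly compared between genes. The deposited FPKM are called normalized, and what this adds is not stated. Ovch2 RNA was at 4.50, 80.2 and 77.2 FPKM in replicates 1, 2 and 3. A gene-level value does not show which exons were read, so it is no check of the genotype. Markers of initial segment principal cells went against the tissue label in replicate 1: their summed level over 8 genes was 183, 12258 and 11556 FPKM, and all 8 were lowest in replicate 1, none at 0. Cst11 made up most of this sum, at 150, 7263 and 7124 FPKM. The drop was not uniform, and Ros1 differed least of the 8, at 21.1, 36.6 and 34.8 FPKM. Absolute depth is unknown. Steps between low values gave replicate 1 an estimated depth 1.24-fold over replicate 2 and 1.41-fold over replicate 3. Only 47.8% of 2087 genes lay on the steps for the first factor, and 48.6% of 2071 genes for the second. These factors are therefore rough estimates and not measured depths. Because replicate 1 stood apart, means and ranges are also given without it.

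The promoter windows of 4 starts are shown first, because Enpp1 and Alpl were among the genes that differed most between libraries while Nt5e differed little. Windows of RefSeq, build GRCm38.p6, run from 250 bases before to 50 after a start, and 10 such windows were matched for 8 of the genes. No window was available for Enpp2 or Enpp5, so the motif counts below leave these genes out. Capitals mark a match on either strand to AGGAAG, a core bound by ETS factors of the PEA3 type, or to TGTTCT, a repeat unit of the androgen response element. Each line runs 5′ to 3′ on the gene's own strand.
Enpp1 (chr10:24712110-24712409, minus strand): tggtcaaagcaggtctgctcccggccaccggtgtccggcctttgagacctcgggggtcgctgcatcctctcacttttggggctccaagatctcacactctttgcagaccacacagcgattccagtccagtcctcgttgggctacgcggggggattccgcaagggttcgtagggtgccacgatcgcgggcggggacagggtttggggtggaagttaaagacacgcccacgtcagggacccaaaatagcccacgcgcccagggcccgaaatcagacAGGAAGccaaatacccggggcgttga
Alpl, upstream start (chr4:137796335-137796634, minus strand): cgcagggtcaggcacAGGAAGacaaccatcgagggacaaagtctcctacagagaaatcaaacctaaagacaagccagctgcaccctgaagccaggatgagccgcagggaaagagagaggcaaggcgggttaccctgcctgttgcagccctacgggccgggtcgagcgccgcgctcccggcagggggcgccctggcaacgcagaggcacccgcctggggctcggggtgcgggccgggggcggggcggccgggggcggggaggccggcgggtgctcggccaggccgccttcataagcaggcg
Alpl, downstream start (chr4:137766426-137766725, minus strand): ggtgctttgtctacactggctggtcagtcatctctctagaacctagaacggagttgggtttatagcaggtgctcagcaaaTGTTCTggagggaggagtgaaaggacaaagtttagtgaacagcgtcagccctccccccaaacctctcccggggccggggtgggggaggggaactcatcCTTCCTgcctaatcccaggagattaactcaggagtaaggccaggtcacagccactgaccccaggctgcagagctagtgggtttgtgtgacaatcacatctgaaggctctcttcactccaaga
Nt5e (chr9:88327359-88327658, plus strand): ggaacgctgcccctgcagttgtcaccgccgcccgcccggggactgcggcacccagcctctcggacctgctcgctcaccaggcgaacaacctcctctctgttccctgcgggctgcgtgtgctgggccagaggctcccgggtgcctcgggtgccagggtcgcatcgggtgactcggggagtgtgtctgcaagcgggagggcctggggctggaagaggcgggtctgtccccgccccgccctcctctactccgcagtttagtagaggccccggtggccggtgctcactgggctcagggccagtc

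AGGAAG was found in the Enpp1 window, in both Alpl windows and nowhere in the Nt5e window. It was also in the windows of Entpd2 and Enpp4, which differed less between libraries than Nt5e did. The second Entpd1 window held it as well, and Entpd1 differed more than Nt5e did. Whether the motif goes with the difference between libraries was not tested. Over the genes, 6 of the 10 windows held AGGAAG, against 35.4% of all 32851 windows of this length in the table. TGTTCT was in 1 window, the downstream one of Alpl, against 19.0% of all windows. CCGGAA, another ETS core, was in 0 of the 10 windows, against 14.9%. No 2 matches to different motifs overlapped, and in the second Entpd1 window a pair of AGGAAG matches did. A match describes the letters of these windows and is not evidence of binding.

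Expression of the 10 genes covered a wide span, with Enpp5 and Alpl at the top and Enpp3 and Entpd3 under 1 FPKM. Of the 10, 8 were at or above 1 FPKM in every library, against 49.9% of all genes. Summed, they made up 0.135%, 0.0826% and 0.0806% of the total FPKM in replicates 1, 2 and 3. By mean level the order was Enpp5, Alpl, Enpp2, Enpp1, Nt5e, Entpd2, Enpp4, Entpd1, Enpp3 and Entpd3. Neighbours in this order whose values did not overlap between libraries were Enpp5 and Alpl, Enpp1 and Nt5e, Entpd2 and Enpp4, Entpd1 and Enpp3, and Enpp3 and Entpd3. The values of Alpl and Enpp2, of Enpp2 and Enpp1, of Nt5e and Entpd2, and of Enpp4 and Entpd1 overlapped, so these neighbours cannot be ranked.

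**Figure D1:**
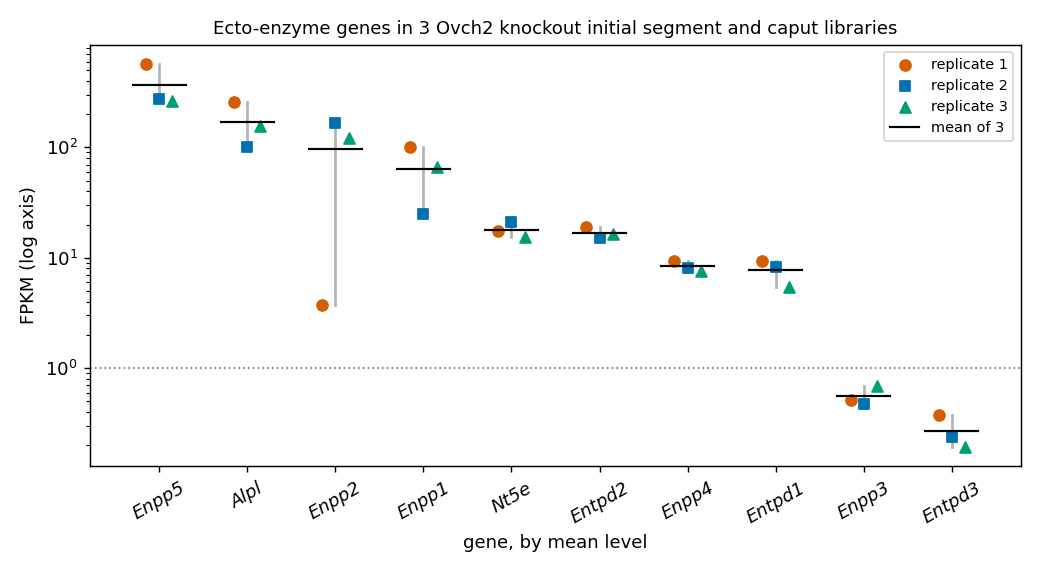
FPKM of each of the 10 genes (log axis) in replicates 1, 2 and 3, with the mean of the 3 libraries as a black bar and a dotted line at 1 FPKM. Enpp2 in replicate 1, at 3.77 FPKM, is the point farthest from its gene's other values, and Enpp3 and Entpd3 lie under the line in every library.

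The libraries differed most in the 4 most abundant of these genes. The range of a gene is its highest minus its lowest log2(FPKM + 1) over the 3 libraries, and this scale understates differences of low genes. Enpp2, Enpp1, Alpl and Enpp5 had a range of at least 2-fold, 4 of 10, against 10.8% of the 13073 genes averaging 1 FPKM or more and 6.38% of all genes. Of the 10, 8 had such a mean. The median range was 0.56 over the 10 genes and 0.91 over those 8, against 0.36 over all genes averaging 1 FPKM or more. The median over the 10 was 0.30 without replicate 1 and 0.29 without replicate 3. Without replicate 1, the count fell to 1 gene, Enpp1, and without replicate 2 to 2 genes, Enpp2 and Enpp5.

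**Figure D2:**
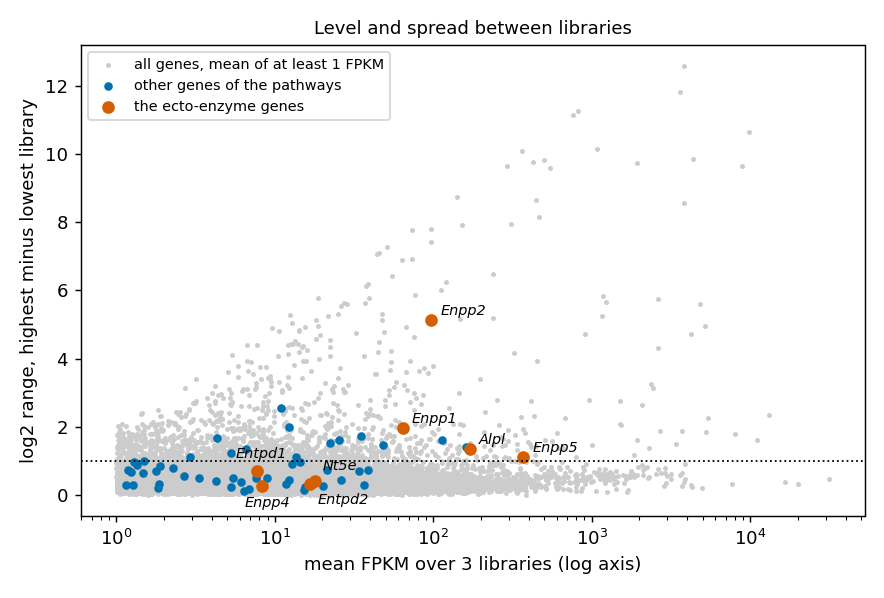
Mean FPKM over the 3 libraries (log axis) against the log2 range between libraries, for all genes averaging 1 FPKM or more (grey), other genes of the same pathways (blue) and the ecto-enzyme genes with such a mean (orange). The dotted line is a 2-fold range, above which lie Enpp2 at 5.12, Enpp1 at 1.95, Alpl at 1.34 and Enpp5 at 1.11.

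Enpp2 (NCBI gene 18606; coordinates are those of mm10, chromosome 15, minus strand, 54838901 to 54952789) encodes autotaxin and had the widest range of the 10. Its level was 3.77 FPKM in replicate 1, against 165 FPKM in replicate 2 and 122 FPKM in replicate 3, a mean of 97.0 ± 83.6 FPKM (SD, n = 3). Replicate 1 alone was low, and its value did not overlap the other values. In FPKM, replicate 2 was 43.8-fold and replicate 3 was 32.4-fold above replicate 1, and replicate 2 was 1.35-fold above replicate 3. The log2 range was 5.12, wider than that of 99.6% of genes averaging 1 FPKM or more. Of the 10, it alone lay 2-fold or more under both others in replicate 1, where 4.07% of genes averaging 1 FPKM or more did so. The mean was 144 FPKM and the range 0.43 without replicate 1, and the mean was 63.0 FPKM without replicate 2. Among all genes it ranked 9899th, 524th and 745th in level in replicates 1, 2 and 3. Its annotation overlaps the long non-coding gene Gm26684 on the opposite strand by 823 bases, and whether the counting used strand is not stated.

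Some other readouts were also lowest in replicate 1, as Enpp2 was. The sperm and caput marker sums given below were highest in replicate 3, whereas Enpp2 was highest in replicate 2. The initial segment principal cell markers had a median log2 deviation from their own 3-library means of -3.80 in replicate 1, where Enpp2 deviated by -3.27, and of 1.80 in replicate 3, where Enpp2 deviated by 1.42. Spermatid and sperm markers summed to 0.301, 161 and 220 FPKM over 6 genes in replicates 1, 2 and 3, and 5 of the 6 were listed at 0 in replicate 1. Caput principal cell markers summed to 49063, 63288 and 69445 FPKM over 6 genes, with 5 lowest in replicate 1 and Lcn9 listed at 0 there. Lcn5 went the other way and was highest in replicate 1, at 21673, 4290 and 13581 FPKM. Gpx5, the largest part of the sum in each library, differed less, at 25918, 35882 and 32210 FPKM. The endothelial markers summed to 16.7, 46.1 and 28.2 FPKM over 6 genes, all of them lowest in replicate 1 and none at 0. The part of these cell types in the Enpp2 values was not tested. In bulk tissue, fewer cells of a type and less RNA per cell cannot be told apart.

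By the smallest distance between deviations over the 3 libraries, among 9225 other genes averaging 5 FPKM or more, the patterns most like Enpp2 were those of Ntsr1, 9230105E05Rik and Defb47, at distances of 0.12, 0.14 and 0.15 on the log2 scale. Ntsr1, a neurotensin receptor gene, was listed at 0 in replicate 1, with 37.3 and 28.0 FPKM in replicates 2 and 3. The gene 9230105E05Rik stood at 0.0313, 30.8 and 25.6 FPKM. The 1 added to each FPKM limits the drop of values near 0. In FPKM, both genes therefore fell further in replicate 1 than Enpp2 did. No other added value was tried for this order. Defb47, a beta-defensin gene, stood at 267, 8264 and 7023 FPKM. A pattern over 3 libraries is only loosely defined.

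**Figure D3:**
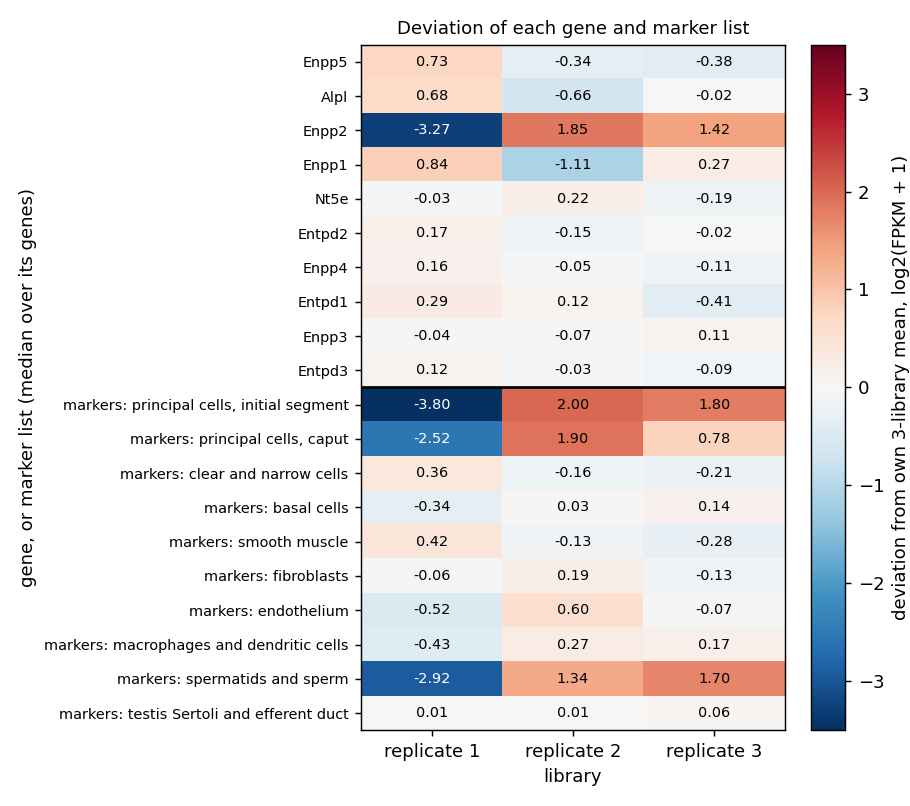
Deviation of each gene (upper block) and the median deviation of each marker list (lower block) from its own mean over the 3 libraries, in log2(FPKM + 1), with colour and printed value per library. Enpp2 and the medians of the initial segment, caput and sperm markers are far below 0 in replicate 1, whereas Enpp5, Alpl and Enpp1 are above it. The caput marker Lcn5 went against its list's median and was highest in replicate 1. A gene's 3 deviations add up to 0 and are not independent.

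Enpp1 and Enpp3 encode membrane ENPPs that split ATP into AMP and pyrophosphate. Enpp1 (NCBI gene 18605, chromosome 10 from 24637914 to 24712159, minus strand) had 100.1, 25.2 and 67.1 FPKM in replicates 1, 2 and 3, a mean of 64.1 ± 37.5 FPKM (SD, n = 3). Here replicate 2 was the low library, and replicate 1 was 3.98-fold and replicate 3 was 2.67-fold above it. Of the 10, Enpp1 alone lay 2-fold or more under both others in replicate 2, where 0.757% of genes averaging 1 FPKM or more did so. It was also the only one at least 2-fold apart between replicates 2 and 3, against 1.72%. Without replicate 1 its mean was 46.1 FPKM and its range 1.38, and without replicate 2 its range was 0.57.

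Enpp3 (NCBI gene 209558, chromosome 10 from 24773814 to 24836195, minus strand) lies beside Enpp1 on the same strand, 61.7 kb away. It was low in every library, at 0.514, 0.477 and 0.683 FPKM in replicates 1, 2 and 3, a mean of 0.558 ± 0.110 FPKM (SD, n = 3). Without replicate 1 its mean was 0.580 FPKM, and its range stayed at 0.19. The Enpp1 level was 195, 52.7 and 98.2 times the Enpp3 level in these libraries, so Enpp1 was far the more abundant of the neighbours throughout. The patterns most like Enpp1 were those of Defb19, Mbnl3 and Xkrx, at distances of 0.016, 0.044 and 0.044. Defb19, a beta-defensin gene, stood at 166, 42.8 and 113 FPKM.

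Enpp5 and Enpp4 lie on chromosome 17 with their 3′ ends facing each other, 9.74 kb apart. Both encode transmembrane ENPPs, and human ENPP4 cleaves diadenosine triphosphate on endothelium. Enpp5 (NCBI gene 83965, 44078802 to 44086567, plus strand) was the most abundant of the 10 in every library. It had 572, 272 and 264 FPKM in replicates 1, 2 and 3, a mean of 369 ± 176 FPKM (SD, n = 3). On the log2(FPKM + 1) scale replicate 1 exceeded replicate 2 by 1.07 and replicate 3 by 1.11, and replicates 2 and 3 differed by 0.04. Of the 10, it alone lay 2-fold or more over both others in replicate 1, where 1.29% of genes averaging 1 FPKM or more did so. None of the 10 lay so far over both others in replicate 2 (0.237% of those genes) or in replicate 3 (0.314%), or so far under both others in replicate 3 (0.153%). Without replicate 1 its mean was 268 FPKM and its range 0.04.

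Enpp4 (NCBI gene 224794, 44096307 to 44105809, minus strand) varied little, at 9.41, 8.02 and 7.63 FPKM in replicates 1, 2 and 3, a mean of 8.35 ± 0.933 FPKM (SD, n = 3). Its log2 range was 0.27, and 36.1% of genes averaging 1 FPKM or more had a narrower one. Without replicate 1 its mean was 7.83 FPKM and its range 0.06. Enpp5 exceeded Enpp4 by 60.8-fold, 33.9-fold and 34.6-fold in the 3 libraries.

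The make-up of the ENPP family therefore differed between libraries. The summed level of Enpp1 to Enpp5 was 686, 471 and 462 FPKM in replicates 1, 2 and 3. Enpp5 made up 83.4%, 57.8% and 57.2% of it, and Enpp2 0.550%, 35.1% and 26.5%. Enpp1 made up 14.6%, 5.34% and 14.5%. The ratio of Enpp2 to Enpp1 was 0.0377, 6.57 and 1.82, so the order of autotaxin and the pyrophosphate-forming enzyme at the RNA level turned round in replicate 1, and even replicates 2 and 3 differed in it.

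**Figure D4:**
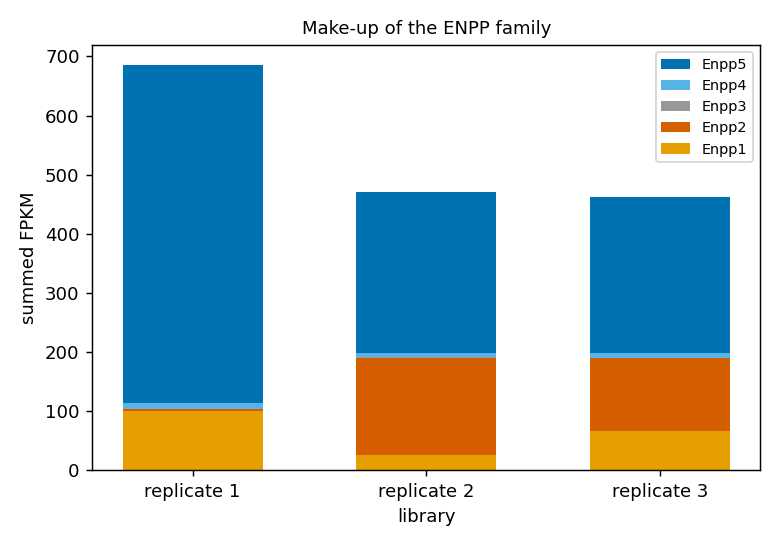
Summed FPKM of Enpp1 to Enpp5 in replicates 1, 2 and 3, stacked by gene. Enpp5 is the largest part in each library, at 572, 272 and 264 FPKM, and the Enpp2 part is 3.77 FPKM in replicate 1 against 165 and 122 FPKM in replicates 2 and 3; Enpp3 is too low to be seen.

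Alpl (NCBI gene 11647, chromosome 4 from 137741731 to 137796384, minus strand) encodes tissue-nonspecific alkaline phosphatase, which hydrolyses the pyrophosphate that ENPP1 forms. It had 256, 100.5 and 156 FPKM in replicates 1, 2 and 3, a mean of 171 ± 78.8 FPKM (SD, n = 3). The libraries had the same order as for Enpp1, with replicate 1 highest and replicate 2 lowest, and replicate 1 was 2.55-fold above replicate 2. The ratio of Alpl to Enpp1 was 2.56, 3.99 and 2.33, so Alpl was the more abundant in each library. The range of Alpl was 1.34 and fell to 0.63 without replicate 1, with a mean of 128 FPKM, and to 0.71 without replicate 2, both under 2-fold. The upstream and downstream Alpl windows printed above belong to separate starts, and one FPKM per gene cannot show which was used.

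The E-NTPDase genes were lower than Alpl in every library. Entpd2 (NCBI gene 12496, chromosome 2 from 25395874 to 25401323, plus strand), whose product turns ATP mainly into ADP, had 18.9, 15.0 and 16.5 FPKM in replicates 1, 2 and 3, a mean of 16.8 ± 2.01 FPKM (SD, n = 3). Its annotation overlaps Npdc1 on the same strand by 1971 bases, and Npdc1 stood at 21.3, 16.3 and 15.0 FPKM. This overlap is of whole gene spans, introns included, and whether exons overlap was not checked. Reads of any shared exon may not be told apart. The Entpd2 range was 0.32, and without replicate 1 it was 0.13, with a mean of 15.7 FPKM. Entpd1 (NCBI gene 12495, chromosome 19 from 40612366 to 40741602, plus strand) encodes CD39, known from endothelium and leukocytes, and stood at 9.45, 8.25 and 5.43 FPKM, a mean of 7.71 ± 2.06 FPKM (SD, n = 3). Its annotation overlaps 3 other genes on the same strand, of which 2 are processed pseudogenes. The range of Entpd1 was 0.70, without replicate 1 it was 0.52, with a mean of 6.84 FPKM, and without replicate 3 it was 0.18. Its highest library was replicate 1, 1.15-fold above replicate 2. All 6 endothelial markers were lowest in replicate 1, as were 4 of the 6 macrophage and dendritic cell markers, although Cd68 was highest there. The part of these cell types in the Entpd1 level was not tested.

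Entpd3 (NCBI gene 215446, chromosome 9 from 120539818 to 120568327, plus strand) was the lowest of the 10, at 0.373, 0.240 and 0.192 FPKM, a mean of 0.268 ± 0.0940 FPKM (SD, n = 3). Its range was 0.20, and without replicate 1 it was 0.06, with a mean of 0.216 FPKM. Among the E-NTPDase genes described, Entpd2 made up 65.9%, 63.8% and 74.6% of the summed FPKM in replicates 1, 2 and 3. Its ratio to Entpd1 was 2.01, 1.81 and 3.04.

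Nt5e (NCBI gene 23959, chromosome 9 from 88327609 to 88372089, plus strand) encodes CD73, the ecto-5'-nucleotidase that forms adenosine. It had 17.5, 21.0 and 15.5 FPKM in replicates 1, 2 and 3, a mean of 18.0 ± 2.77 FPKM (SD, n = 3), and its range was 0.41. Its level was 0.923, 1.40 and 0.942 times that of Entpd2, so neither gene was the higher in every library. Alpl exceeded Nt5e by 14.6-fold, 4.78-fold and 10.1-fold in replicates 1, 2 and 3. Leaving out replicate 1 gave Nt5e a mean of 18.3 FPKM and the same range of 0.41, and leaving out replicate 2 gave a range of 0.16.

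By library, 6 of the 8 genes averaging 1 FPKM or more were highest in replicate 1, against 38.2% of all genes averaging as much. With Entpd3, this made 7 of the 10. These were Enpp1, Enpp4, Enpp5, Entpd1, Entpd2, Entpd3 and Alpl, and for Enpp4 and Entpd2 the log2 range was 0.27 and 0.32. Clear and narrow cell markers summed to 171 FPKM over 6 genes in replicate 1, against 110 FPKM in replicate 2 and 101 FPKM in replicate 3. Of the 6, 4 were highest in replicate 1 and none was at 0. Among these 4, Foxi1 stood at 84.4, 33.4 and 37.3 FPKM, and Slc4a9 was near the floor, at 0.139, 0.114 and 0.130 FPKM. Atp6v0d2 (25.9, 41.1 and 29.5 FPKM) and Car2 (9.09, 11.0 and 11.6 FPKM) went the other way and were lowest in replicate 1. Smooth muscle markers deviated there by a median of 0.42, with 5 of 6 highest in replicate 1 and none at 0. Their summed level was 723, 1781 and 1713 FPKM, with Actg2, at 49.9, 1341 and 1316 FPKM, the only one of the 6 that was lowest in replicate 1. The part of these cell types in the ecto-enzyme levels was not tested. Enpp2 was the 1 of the 8 genes averaging 1 FPKM or more, and of the 10, that was lowest in replicate 1, against 41.3% of all genes averaging as much.

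The genes on either side of these enzymes in the pathways were counted from 5 lists. Of 75 listed genes in the table, 49 had a mean of at least 1 FPKM, and 13 of the 49 (26.5%) had a range of at least 2-fold, against the background of 10.8%. The median range of the 49 was 0.69, and the lists share no gene with the 10. In each of the 13, replicates 2 and 3 were less than 2-fold apart, so this count rested on replicate 1. Replicates 2 and 3 were at least 2-fold apart in 1.72% of all genes averaging 1 FPKM or more.

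Among other ecto-enzymes and phosphatases, 8 of 15 genes had a mean of at least 1 FPKM and 1 of the 8 a range of at least 2-fold. It was Alppl2, an alkaline phosphatase gene, at 4.43, 1.51 and 2.86 FPKM in replicates 1, 2 and 3, and it can share reads with its close relatives. Cant1, a calcium-activated nucleotidase gene, had the highest mean, at 51.6, 30.8 and 33.9 FPKM. Acpp, the prostatic acid phosphatase that also acts on AMP, stood at 20.2, 13.5 and 9.78 FPKM. Entpd5, an endoplasmic reticulum UDPase gene, stood at 8.18, 16.0 and 14.5 FPKM, and Cd38, an NAD glycohydrolase gene with the lowest mean of the 8, at 0.595, 1.73 and 2.17 FPKM. Enpp6, a choline-specific phosphodiesterase gene chosen after its values were seen, was listed at 0 in replicate 1 and had 0.817 and 0.436 FPKM in the others.

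Receptors for ATP and related nucleotides were led by P2rx2, an ATP-gated channel gene, at 75.2, 26.7 and 43.4 FPKM in replicates 1, 2 and 3. Its libraries had the same order as those of Enpp1 and Alpl. It was the 1 gene of 11 averaging 1 FPKM or more whose range was at least 2-fold. P2ry2, a receptor for ATP and UTP, stood at 2.37, 0.774 and 0.716 FPKM. The sensory neuron channel gene P2rx3 stood at 0.576, 1.58 and 1.92 FPKM, and P2ry12, a microglial and platelet ADP receptor gene, at 0.629, 1.21 and 1.72 FPKM. P2ry14, a UDP-sugar receptor gene with the lowest mean of the 11, stood at 0.907, 1.33 and 1.23 FPKM.

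Of the adenosine and nucleoside handling genes, 5 of the 9 averaging 1 FPKM or more had a range of at least 2-fold. The concentrative nucleoside transporter gene Slc28a3 had 2.30, 18.1 and 12.6 FPKM in replicates 1, 2 and 3, and the equilibrative transporter gene Slc29a4 had 3.41, 10.2 and 6.28 FPKM. Both were lowest in replicate 1, as Enpp2 was, whereas the lysosomal transporter gene Slc29a3 was highest there, at 36.5, 11.9 and 18.7 FPKM. Pnp, which splits inosine and guanosine, stood at 13.4, 45.0 and 47.2 FPKM, and its near-identical neighbour Pnp2 can share its reads. The adenosine receptor gene Adora1 was the other of the 5, at 9.09, 3.55 and 3.31 FPKM, and was chosen after its values were seen, to complete that count. Slc29a1, the plasma membrane equilibrative transporter gene, had the highest mean, at 40.9, 35.3 and 33.3 FPKM, although Pnp was above it in replicates 2 and 3. Ada, the adenosine deaminase gene, had the lowest mean, at 5.09, 3.60 and 4.12 FPKM, but was the lowest of the 9 in no single library.

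Among ATP release and pyrophosphate export genes, 3 of 8 averaging 1 FPKM or more had a range of at least 2-fold. Slc17a9, the vesicular nucleotide transporter gene, had 50.3, 156 and 135 FPKM in replicates 1, 2 and 3, and Gja1, encoding connexin 43, had 80.1, 214 and 187 FPKM. These were low in replicate 1. Ank, whose product exports ATP and pyrophosphate, went with Enpp1 and Alpl, at 7.83, 1.80 and 3.38 FPKM. Calhm2 stood at 0.971, 2.54 and 2.18 FPKM, and the ATP channel gene Panx1, of the lowest mean, at 1.98, 1.54 and 0.907 FPKM.

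Of the lysophospholipid genes, on which autotaxin's product bears, 3 of 13 averaging 1 FPKM or more had a range of at least 2-fold. Lipi, a phospholipase that makes lysophosphatidic acid from phosphatidic acid, had 11.9, 38.1 and 26.4 FPKM in replicates 1, 2 and 3, in the same order as Enpp2. The lipid phosphate phosphatase gene Ppap2a was also lowest in replicate 1, at 7.38, 17.0 and 16.4 FPKM, and its relative Ppap2b stood at 40.4, 37.2 and 24.4 FPKM. The receptor genes for sphingosine-1-phosphate S1pr3 (24.1, 7.76 and 5.26 FPKM), S1pr1 (1.56, 3.39 and 1.86 FPKM) and S1pr2 (1.91, 1.61 and 2.02 FPKM) did not share an order. The lysophosphatidic acid receptor genes Lpar1 and Lpar6, named after their values were seen, stood at 7.11, 5.99 and 5.21 FPKM and at 7.20, 9.19 and 10.6 FPKM.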

How the data were processed

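Per the labels' protocols, TRIzol was used for RNA and a stranded TruSeq mRNA kit for the libraries. The authors deposited 1 table of normalized FPKM per gene and library, per the file headers. TopHat2 2.1.1, Cufflinks 2.2.1 and mm10 are named in the submitters' processing notes. Annotation, strand setting, filters and what normalized means: not given in the sources used here. An exact 0 can be a failed estimate, since the ribosomal protein gene Rpl26 was listed at 0 in replicates 1 and 3.

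Columns were assigned to samples by name. Values were analysed as log2(FPKM + 1). As the labels give 1 group and FPKM are not counts, means, SDs, ranges and counts are given without a test. Relative depth was estimated from whole-number ratios between values under 0.5 FPKM. The table's gene IDs were matched to RefSeq (build GRCm38.p6, identical in coordinates to mm10; 24260 of 24346 matched). Strands, overlaps and neighbours are from GENCODE M21 and RefSeq. The genes, the lists and the naming rule were chosen with earlier results of these data known. The rule named all 10 genes, of each list the highest, the lowest and up to 4 of widest range averaging 1 FPKM or more, and the 3 genes nearest in pattern to the 2 genes of widest range. Alternatives were leaving out each replicate, other scalings, a pseudocount of 0.1, only genes averaging 1 FPKM or more, and thresholds of 0.5 and 5 FPKM. Python 3.11.15, numpy 2.4.6 and pandas 2.3.3 were used.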

Additional observations from a re-analysis of the deposited data

How the results depend on the processing

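Of 155 values recomputed under an alternative, over 29 results, 140 moved by less than the spread between libraries or stayed within 1.5 times the count. Many of these outcomes were fixed in advance. A mean with 1 replicate left out cannot move by more than the SD over all libraries. Leaving out the middle library cannot change a range. The 140 are therefore no measure of how stable the results are. The number of genes with a range of at least 2-fold, 4 over all libraries, lay between 1 and 4 with 1 replicate left out. It was 1 without replicate 1 and 2 without replicate 2. The median range over genes averaging 1 FPKM or more was 0.91, against 0.56 over all 10, because the filter removes Enpp3 and Entpd3. The range of Enpp2 was 0.43 without replicate 1, and that of Enpp1 was 0.57 without replicate 2. The mean of Enpp2 was 63.0 FPKM without replicate 2. With a pseudocount of 0.1 the ranges of Enpp3 and Entpd3 were 0.44 and 0.70, against 0.19 and 0.20. Another scaling changed no count. Counts of genes apart from both other libraries could not be formed with 2 libraries. No paired analysis was possible because the labels give 1 group. Depth limits Enpp3 and Entpd3 most, and no counting interval could be given without counts.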
